A study of Homo sapiens with 6 samples.

Results

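The alpha-arrestins are a family of adaptor proteins that share the arrestin fold with the better known beta-arrestins. The 7 genes described here are the alpha-arrestin genes TXNIP, ARRDC1, ARRDC2, ARRDC3 and ARRDC4, and MLXIP and MLX, which encode the glucose-sensing transcription factors that act on TXNIP and ARRDC4. They were taken by symbol from a deposited table of 13117 genes, and all 7 were listed. Messenger RNA was profiled in SNU449, an established human hepatocellular carcinoma line labelled wild type, into which FOXO1AAA had been placed with the inducible vector pInducer20; FOXO1AAA is FOXO1, a forkhead transcription factor, with its AKT phosphorylation sites replaced. Cells of both groups held this construct and grew for 48 h, 3 libraries without doxycycline (Cont) and 3 libraries with 2 µM doxycycline hydrochloride (Dox). No library received the drug without the construct, so effects of doxycycline itself and of FOXO1AAA cannot be told apart. The labels do not say whether replicate libraries stem from separate cultures, so p-values measure the spread between these libraries, which may be technical.

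Alpha-arrestins bind membrane proteins and, through short proline-rich motifs, recruit ubiquitin ligases of the NEDD4 type, which marks the cargo for internalisation. TXNIP, the thioredoxin-interacting protein, also binds thioredoxin and lowers glucose uptake by driving the glucose carrier GLUT1 from the cell surface. In the cytosol the protein MondoA, encoded by MLXIP, pairs with MLX; when glucose 6-phosphate rises the pair moves into the nucleus and activates TXNIP and ARRDC4 through spaced pairs of E-box-like sites. In liver the related protein ChREBP, encoded by MLXIPL, pairs with MLX in the same way. TXNIP is also known as a FOXO-responsive gene in several tissues.

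Motif matches in the promoters are shown first, because 4 of these genes (TXNIP, ARRDC3, ARRDC4 and MLX) hold a match to a motif of the factors named above in a short window before an annotated start. The windows come from RefSeq (GRCh38.p14) and hold 250 bases before to 50 bases after each listed start. All 7 genes matched, with 10 windows in all. Both strands were searched for GTAAACA, a FOXO binding element, for CACGTG, the E-box, and for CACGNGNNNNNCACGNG, a tandem box of the glucose-response type, which can contain an E-box. The bases upstream of the start are printed 5′ to 3′ on the gene's strand, with the matches in capitals. The windows of the 3 alpha-arrestin genes among them are shown. They are chr1:145996580-145996829 (minus strand) for TXNIP, chr5:91380098-91380347 (minus strand) for the second listed start of ARRDC3, and chr15:97960453-97960702 (plus strand) for ARRDC4.
TXNIP: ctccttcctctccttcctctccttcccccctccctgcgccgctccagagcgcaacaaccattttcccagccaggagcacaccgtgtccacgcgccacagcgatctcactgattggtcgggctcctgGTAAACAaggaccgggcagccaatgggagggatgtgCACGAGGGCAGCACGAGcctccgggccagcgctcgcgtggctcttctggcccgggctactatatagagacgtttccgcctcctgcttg
ARRDC3: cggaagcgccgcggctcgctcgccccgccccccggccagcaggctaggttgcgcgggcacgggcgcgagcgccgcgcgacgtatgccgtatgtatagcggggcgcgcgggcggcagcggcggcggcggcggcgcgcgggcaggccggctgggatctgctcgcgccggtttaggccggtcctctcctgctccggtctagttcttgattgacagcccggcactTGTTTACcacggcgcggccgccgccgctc
ARRDC4: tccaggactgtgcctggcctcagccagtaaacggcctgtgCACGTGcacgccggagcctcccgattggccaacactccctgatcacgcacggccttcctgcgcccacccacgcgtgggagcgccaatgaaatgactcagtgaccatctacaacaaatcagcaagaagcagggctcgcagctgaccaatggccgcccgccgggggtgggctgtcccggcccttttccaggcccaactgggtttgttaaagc

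The window of the first TXNIP start held GTAAACA at bases -124 to -118 from that start and the tandem box at -88 to -72. The window of the second TXNIP start had no match. In ARRDC3 the FOXO element lay on the other strand, read as TGTTTAC, at -29 to -23 of the second start, and the first start had no match. ARRDC4 held an E-box at -210 to -205, and MLX held one at -50 to -45. No match to the 3 motifs was found in the windows of ARRDC1, ARRDC2 and MLXIP, which says only that these letters are absent from these windows. Among all 35116 RefSeq windows of 300 bases, 3.42% held GTAAACA, 7.26% held CACGTG and 0.0570% held the tandem box, which makes the last the rarest of the 3. These matches are descriptions of sequence, and binding was not measured.

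**Figure D1:**
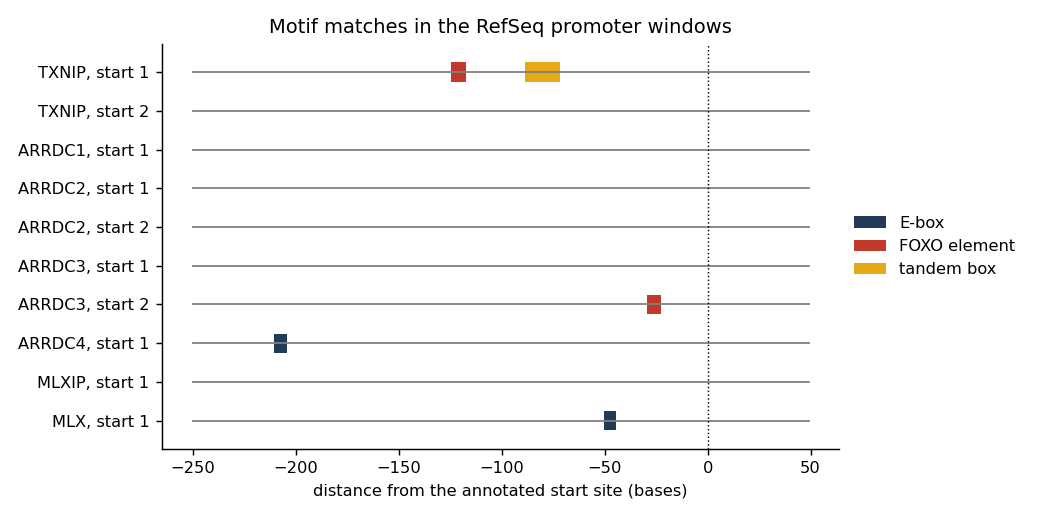
Each grey line is 1 RefSeq promoter window of a gene, drawn by distance from its annotated start site in bases, and each coloured block is a motif match. TXNIP carries both a FOXO element and the tandem box before its first start, ARRDC3 a FOXO element before its second start, and ARRDC4 and MLX 1 E-box each.

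Relative depth, read from the steps of the lowest values, ran from 0.790 to 1.31 times the mean of the 6 libraries. FOXO1, the induced gene, was at 0.741, 0.776 and 0.889 FPKM (fragments per kilobase and per M mapped reads, M for mega) in Cont and at 2.87, 3.50 and 2.01 in Dox. The table does not show if reads of the construct count towards it. Of 10 hepatocyte markers, 3 were listed, and their summed FPKM was 0.632 to 0.998 in Cont and 1.71 to 2.76 in Dox. The 2 listed hepatoma markers, AFP and FGB, summed to 143 to 207 in Cont and 11.8 to 17.9 in Dox, most of it from FGB, a fibrinogen chain gene of liver (mean 170 and 8.57 FPKM). The 3 listed epithelial markers summed to 122 to 127 in Cont and 32.8 to 34.5 in Dox, and the 4 listed mesenchymal markers to 1147 to 1189 and 330 to 405. The 2 listed endothelial markers stayed below 1 in sum, and the 4 immune markers were not analysed here. The part of these differences in the results was not tested. The share of summed FPKM in the 13 mitochondrially encoded genes was 3.73 ± 0.855% in Cont and 14.1 ± 0.800% in Dox (SD, n = 3). Values after their removal and rescaling, called nuclear TPM (transcripts per M) below, therefore stand beside the results that turn on them.

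The alpha-arrestin genes did not move together: ARRDC1, ARRDC2, ARRDC3 and ARRDC4 were higher in Dox, and TXNIP, MLXIP and MLX were lower. Differential expression was tested with limma on log2(FPKM + 1), Benjamini-Hochberg adjusted over the 11526 genes that reached FPKM 1 in 3 or more libraries, with a threshold of 0.05. All 7 genes passed the filter and the threshold, 4 higher and 3 lower. ARRDC4, among the 4 higher, passed the filter through the Dox libraries only, so it adds no support to the count. The background was high, since 80.4% of all tested genes passed, 37.6% higher and 42.8% lower, so passing is no mark of these genes. Likewise, Cont and Dox values did not overlap for any of the 7, against 82.1% of all tested genes. The median log2 change of the 7 genes was 0.30, beside -0.06 for all tested genes, but it counts ARRDC4. Without ARRDC4 the median lies between the changes of TXNIP (-0.37) and ARRDC3 (0.30), so it shows no shift of these genes as a set.

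**Figure D2:**
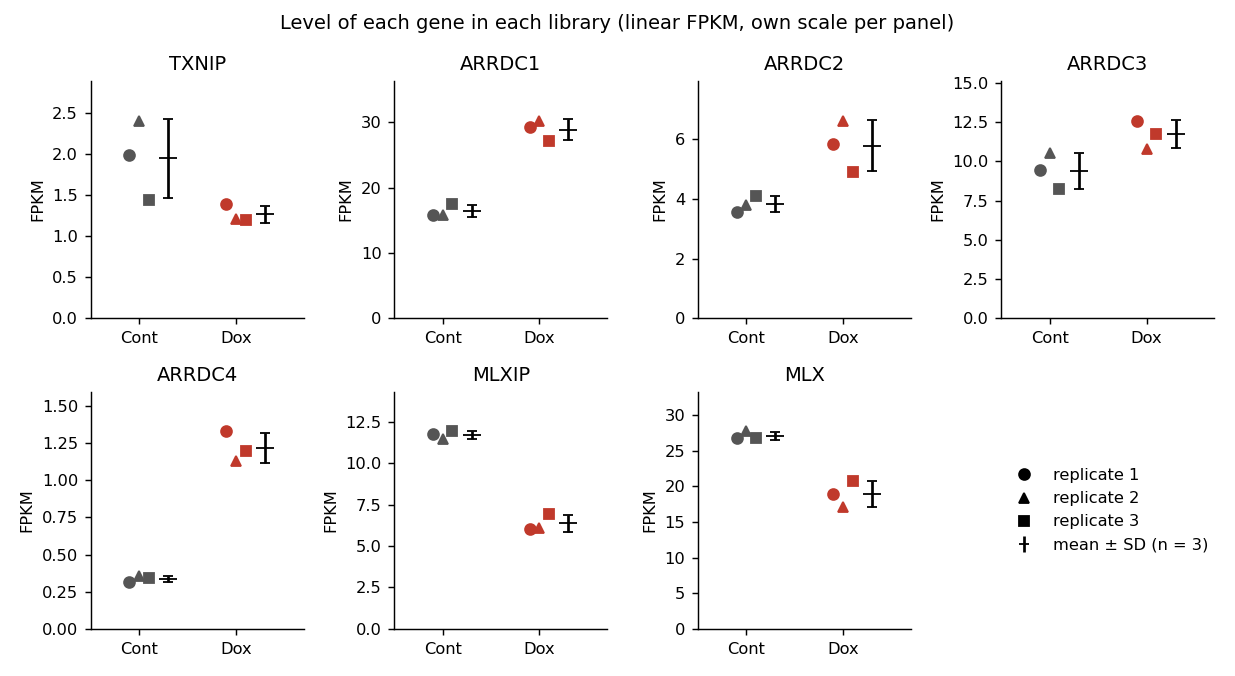
Level of each gene in linear FPKM, with 1 point per library (marker shape gives the replicate number), and mean ± SD (n = 3) beside each group; each panel has its own axis from 0. ARRDC4 shows the widest separation in proportion, from 0.317 to 0.357 in Cont to 1.13 to 1.33 in Dox, while the nearest Cont and Dox libraries almost touch for TXNIP (1.44 and 1.39) and ARRDC3 (10.6 and 10.8).

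TXNIP (ENSG00000265972.5, chromosome 1, 145992435 to 145996600, minus strand, GRCh38) was at 1.98, 2.41 and 1.44 FPKM in Cont and at 1.39, 1.21 and 1.19 in Dox. Cont replicate 3 was the low Cont library and came within 0.1 FPKM of the highest Dox library. Means of 1.94 ± 0.482 and 1.26 ± 0.106 (SD, n = 3) made a 1.54-fold fall, with a log2 change of -0.37 (95% interval -0.67 to -0.06, limma adjusted p = 0.0306). It had the highest adjusted p of the 7 genes, and 7 of 17 alternatives ended the call. Leaving out Cont replicate 1, Cont replicate 2, Dox replicate 2 or Dox replicate 3 ended the call, with limma adjusted p = 0.0827, 0.143, 0.0776 and 0.0802 and log2 changes of -0.35, -0.26, -0.35 and -0.34. Scaling mattered as well: the change was -0.34 in TPM, -0.28 by median of ratios and -0.23 in nuclear TPM (limma adjusted p = 0.0571, 0.0729 and 0.182), but -0.75 under quantile normalization (0.000712). The sign was negative in all of them. The level was low in both groups, at the 22.4th percentile of all listed genes in Cont and the 14.6th in Dox. An estimated 108 to 290 reads per library stood behind it, on the scale of the longest annotated transcript, which makes read numbers rough.

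ARRDC4 (ENSG00000140450.8, chromosome 15, 97960698 to 97973838, plus strand), the closest relative of TXNIP in its response to glucose, went the other way. It was at 0.317, 0.357 and 0.341 FPKM in Cont and at 1.33, 1.13 and 1.20 in Dox. All 3 Dox libraries stood more than 3-fold above every Cont library, and the Cont libraries hardly varied. Mean FPKM of 0.339 ± 0.0202 and 1.22 ± 0.101 (SD, n = 3) made a 3.60-fold rise, with a log2 change of 0.73 on the log2(FPKM + 1) scale (95% interval 0.48 to 0.98, limma adjusted p = 0.000158). On that scale the change of so low a gene is understated: the deposited log2 values themselves gave 1.85 (limma adjusted p = 0.000126). ARRDC4 reached FPKM 1 in the Dox libraries only, so it entered the test through the group in which it was high, and it left the test when any Dox library was left out. Quantile normalization reduced the change to 0.16 (limma adjusted p = 0.192). The estimated reads were 35 to 58 per Cont library and 151 to 253 per Dox library.

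ARRDC1 (ENSG00000197070.13, chromosome 9, 137605654 to 137615360, plus strand) encodes the alpha-arrestin that drives budding of small vesicles from the plasma membrane. It was at 15.9, 15.9 and 17.5 FPKM in Cont and at 29.3, 30.3 and 27.1 in Dox. The groups were far apart and each was tight. The means of 16.4 ± 0.935 and 28.9 ± 1.64 (SD, n = 3) gave a 1.76-fold rise and a log2 change of 0.78 (95% interval 0.61 to 0.95, limma adjusted p = 7.12e-06). The call held in all 18 alternatives, with changes of 0.75 to 1.07. ARRDC1 shares 183 exonic bases with AL590627.2 on the same strand and 29 with its antisense gene ARRDC1-AS1, and the sources used here do not say how shared reads were counted.

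ARRDC3 (ENSG00000113369.8, chromosome 5, 91368724 to 91383359, minus strand), an adaptor for cell surface receptors, changed least in proportion in the FPKM as deposited. Its level was 9.43, 10.6 and 8.22 FPKM in Cont and 12.6, 10.8 and 11.8 in Dox. Cont replicate 2 and Dox replicate 2 lay close together, at 10.6 and 10.8. The means of 9.40 ± 1.16 and 11.7 ± 0.894 (SD, n = 3) gave a 1.25-fold rise and a log2 change of 0.30 (95% interval 0.06 to 0.53, limma adjusted p = 0.0227). The call ended without Cont replicate 3 (0.21, limma adjusted p = 0.0699) and without Dox replicate 1 (0.25, 0.0798). In nuclear TPM the change was 0.57 (limma adjusted p = 0.000480), and that of MLX was smaller (-0.24). The gene shares 145 exonic bases with ARRDC3-AS1 on the opposite strand.

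ARRDC2 (ENSG00000105643.9, chromosome 19, 18001132 to 18014102, plus strand), a paralog of ARRDC3, was at 3.57, 3.81 and 4.10 FPKM in Cont and at 5.84, 6.63 and 4.91 in Dox. Dox replicate 3 was the low Dox library, yet it was above every Cont library. The means of 3.83 ± 0.265 and 5.79 ± 0.862 (SD, n = 3) gave a 1.51-fold rise and a log2 change of 0.49 (95% interval 0.23 to 0.74, limma adjusted p = 0.00273). The call held in all 17 alternatives that tested the gene, with changes of 0.38 to 0.77. It shares 442 exonic bases with AC020904.3 on the opposite strand.

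**Figure D3:**
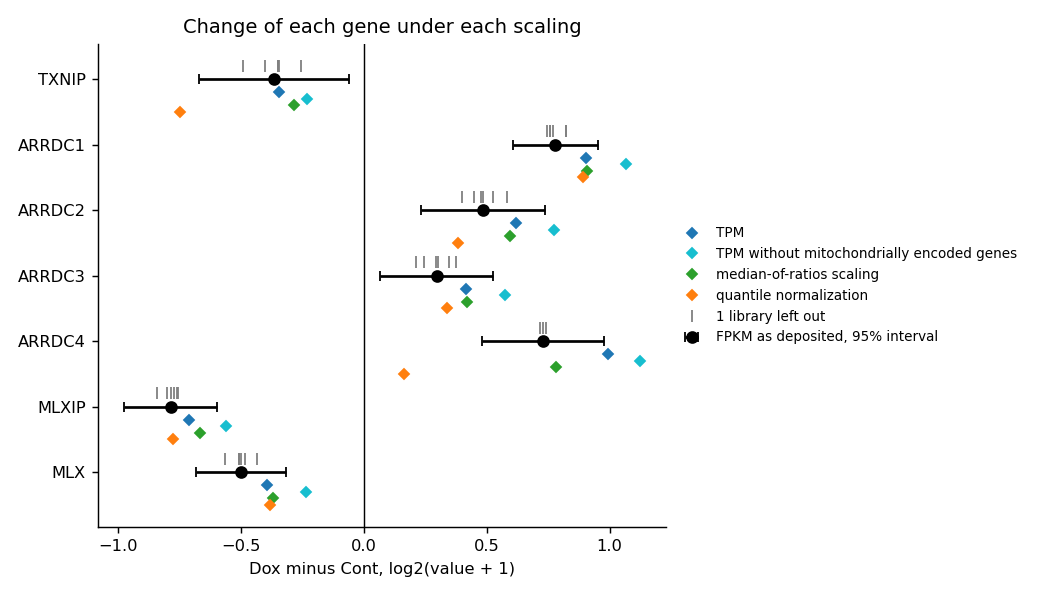
Log2 change (Dox minus Cont) of each gene: black circles with 95% intervals for FPKM as deposited, coloured diamonds for the other scalings, grey ticks for fits with 1 library left out. Each gene stays on its side of 0 in every fit, and the widest scatter between scalings belongs to ARRDC4, from 0.16 to 1.12, and TXNIP, from -0.75 to -0.23.

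Ratios within a library do not depend on scaling by 1 factor per library, but quantile normalization is not such a factor and can alter them. The 5 alpha-arrestin genes summed to 31.9 ± 0.951 FPKM in Cont and 48.9 ± 2.40 in Dox (SD, n = 3). TXNIP made up 6.36%, 7.29% and 4.57% of this sum in the Cont libraries and 2.74%, 2.42% and 2.59% in the Dox libraries. ARRDC4 made up 1.02%, 1.08% and 1.08% in Cont and 2.64%, 2.26% and 2.60% in Dox. In Cont, TXNIP was therefore the larger of these minor shares in every library, and in Dox they were about level. ARRDC1 took 51.5 ± 3.66% in Cont and 59.1 ± 1.24% in Dox, and ARRDC3 took 29.4 ± 3.06% and 24.0 ± 2.10% (SD, n = 3). ARRDC3 thus rose in FPKM while its share of the family fell. The share of ARRDC2 was 12.0 ± 0.853% and 11.8 ± 1.32% (SD, n = 3; exact permutation p = 1.0, two-sided). The other 4 shares and the sum each gave an exact two-sided permutation p of 0.10, the smallest that 3 libraries against 3 allow (0.12 adjusted over these 6 tests), so the design cannot pass 0.05 here.

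**Figure D4:**
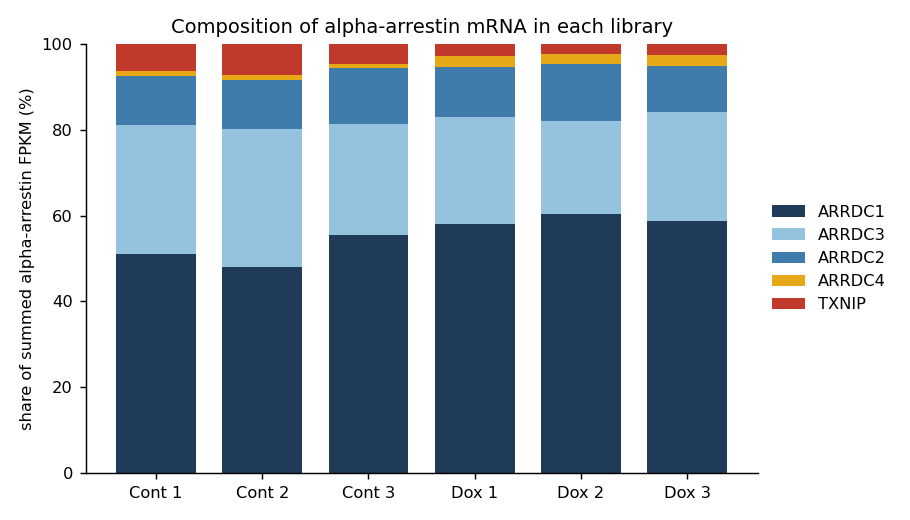
Share of each gene in the summed FPKM of the 5 alpha-arrestin genes, in percent, with 1 bar per library. The TXNIP block at the top is between 4.57% and 7.29% in Cont and between 2.42% and 2.74% in Dox, while the ARRDC4 block below it grows from about 1% to between 2.26% and 2.64%.

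The ratio of ARRDC4 to TXNIP, the gene pair known to share MondoA as an activator, was 0.160, 0.149 and 0.236 in Cont and 0.960, 0.934 and 1.00 in Dox. The groups were far apart, with means of 0.182 ± 0.0477 and 0.966 ± 0.0358 (SD, n = 3). The ratio of ARRDC1 to ARRDC3 went from 1.77 ± 0.321 to 2.47 ± 0.279 without overlap, whereas that of ARRDC2 to ARRDC3 overlapped between groups, at 0.413 ± 0.0749 and 0.498 ± 0.102 (SD, n = 3; exact permutation p = 0.3). Of 7 ratios computed in this family, 6 reached the smallest exact permutation p of 0.10 (0.117 adjusted over the 7).

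MLXIP (ENSG00000175727.13, chromosome 12, 122078722 to 122147347, plus strand), the MondoA gene, was at 11.7, 11.4 and 11.9 FPKM in Cont and at 6.06, 6.10 and 6.95 in Dox. The Cont libraries lay within 0.5 FPKM of one another and well above the Dox libraries. The means of 11.7 ± 0.246 and 6.37 ± 0.50 (SD, n = 3) gave a 1.84-fold fall and a log2 change of -0.79 (95% interval -0.98 to -0.60, limma adjusted p = 1.25e-05). The call held in all 18 alternatives, with changes of -0.88 to -0.56.

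MLX (ENSG00000108788.11, chromosome 17, 42567068 to 42573239, plus strand), the obligate partner of MondoA and ChREBP, was at 26.7, 27.7 and 26.8 FPKM in Cont and at 18.9, 17.1 and 20.7 in Dox. It was the most abundant of the 7 genes per length in Cont and second to ARRDC1 in Dox. The means of 27.1 ± 0.545 and 18.9 ± 1.83 (SD, n = 3) gave a 1.43-fold fall and a log2 change of -0.50 (95% interval -0.69 to -0.32, limma adjusted p = 0.000286). It passed in all 18 alternatives, but by less in nuclear TPM (-0.24, limma adjusted p = 0.0232). MLX shares 770 exonic bases with PSMC3IP, a recombination factor gene on the opposite strand, whose level fell by 1.49 in log2, from 10.3 ± 1.15 to 3.06 ± 0.572 FPKM (SD, n = 3; limma adjusted p = 2.20e-06). Without a stated use of strand, reads of these genes cannot be told apart in the shared stretch, and the part of this in the MLX value was not tested.

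The ratio of MLXIP to MLX was 0.439, 0.413 and 0.445 in Cont and 0.321, 0.358 and 0.335 in Dox, lower in every Dox library than in any Cont library. MLXIPL, the ChREBP gene, was too low to be tested. It was at 0.201, 0.159 and 0.412 FPKM in Cont and at 0.611, 0.202 and 0.567 in Dox, with overlapping groups and an estimated 17 to 92 reads per library. No test was run on it, so neither a difference nor its absence is shown.

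In order of FPKM, the Cont libraries ran from MLX through ARRDC1, MLXIP, ARRDC3, ARRDC2 and TXNIP down to ARRDC4, and no neighbours in that order overlapped. In Dox the order was ARRDC1, MLX, ARRDC3, MLXIP, ARRDC2, TXNIP and ARRDC4. There MLXIP (6.06 to 6.95) overlapped ARRDC2 (4.91 to 6.63), and TXNIP (1.19 to 1.39) overlapped ARRDC4 (1.13 to 1.33). ARRDC1 and MLX had thus changed places at the top, and ARRDC3 had passed MLXIP.

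Other partners of MLX rose. MLX also pairs with the repressors MXD1, MXD4 and MNT, which can take the place of MondoA on it. MXD4 rose from 4.82, 4.95 and 4.56 FPKM to 30.1, 30.8 and 30.0 (log2 change 2.44, SE 0.07, limma adjusted p = 3.06e-09). MXD1 rose from 5.67, 5.91 and 6.15 to 19.7, 20.2 and 20.1 (1.60, limma adjusted p = 3.70e-08). MNT rose by 0.33 (limma adjusted p = 0.0131), a call that ended under quantile normalization (0.15, limma adjusted p = 0.229) and without Dox replicate 1 (0.28, 0.0576). As ratios to MLX in FPKM, MXD4 went from 0.176 ± 0.00544 to 1.62 ± 0.179 and MXD1 from 0.218 ± 0.00963 to 1.06 ± 0.11 (SD, n = 3). In FPKM both were thus below MLX in Cont and above it in Dox, except MXD1 in Dox replicate 3, at 0.968. Where such a ratio stands relative to 1 depends on the gene lengths behind the FPKM, which are not known. Reads shared with PSMC3IP may also enter the MLX value. In the whole MLX and MAX list, 5 of 8 tested genes rose and 3 fell, with a median log2 change of 0.97. MAX, the partner of MYC, rose 4.15-fold, from 92.1 ± 13.4 to 382 ± 19.1 FPKM (SD, n = 3). The falls were those of MYC (-3.21), MXD3 (-1.66) and, at the margin, MGA (-0.18, limma adjusted p = 0.0410). The call of MGA was lost under all 4 other scalings, and its sign turned in nuclear TPM (0.10, limma adjusted p = 0.247) and under quantile normalization (0.08, 0.359), so 2 genes of this list fell under each of those scalings. The ratio of MLX to MAX dropped from 0.297 ± 0.0358 to 0.0494 ± 0.00352 (SD, n = 3).

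The NEDD4-type ligases that alpha-arrestins recruit, with their adaptors, had 5 rises and 1 fall among 10 tested genes (median log2 change 0.20), and in nuclear TPM 7 rises and 0 falls. Of all tested genes, 37.6% rose and 42.8% fell as deposited, and 48.3% rose and 31.9% fell in nuclear TPM, where their median log2 change was 0.22; every list's counts are read against these shares. ITCH, the ligase known to degrade TXNIP, rose from 205, 214 and 238 FPKM to 276, 301 and 282 (log2 change 0.39, limma adjusted p = 0.000903). HECW2 rose 4.75-fold, from 10.1 ± 1.96 to 47.8 ± 2.58, and the membrane adaptor gene NDFIP2 rose 1.80-fold, from 20.4 ± 3.03 to 36.7 ± 2.22 (SD, n = 3). NEDD4 rose by 0.23 (limma adjusted p = 0.0408), a call that ended without Cont replicate 1, Cont replicate 2, Dox replicate 2 or Dox replicate 3 (log2 changes of 0.20, 0.22, 0.25 and 0.13) and without the mean-variance trend (limma adjusted p = 0.0589). WWP1 fell, by 0.42 in log2 (limma adjusted p = 0.00377), but missed the threshold in nuclear TPM (-0.16, limma adjusted p = 0.197). WWP2, the ligase known to act on ARRDC1, was at 19.7 ± 1.22 and 22.3 ± 0.449 (SD, n = 3; limma adjusted p = 0.0545), and passed under each of the 4 other scalings.

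Among genes of proteins tied to TXNIP, 2 of 9 tested rose and 5 fell (median log2 change -0.55), and in nuclear TPM 3 and 5 (median -0.28). TXN, the gene of its main partner thioredoxin, fell from 367, 399 and 350 FPKM to 177, 160 and 212 (log2 change -1.03, limma adjusted p = 7.89e-06). SLC2A1, the GLUT1 gene, fell from 50.1, 52.5 and 51.3 to 15.6, 14.1 and 14.3 (-1.74, limma adjusted p = 1.37e-08). Both log2 falls were larger than that of TXNIP, a difference that was not tested. KPNA2, the gene of an importin, fell from 491 ± 12.3 to 95.5 ± 21.4. The 2 rises as deposited were those of PRKAA2 and CDKN1B. PRKAA2, a catalytic subunit of the kinase AMPK, which phosphorylates TXNIP, went from 0.450 ± 0.103 to 4.88 ± 0.209. The cell cycle inhibitor gene CDKN1B went from 86.3 ± 7.12 to 172 ± 13 (SD, n = 3). PRKAA2, like ARRDC4, entered the test only through the Dox libraries and left it when any Dox library was left out, so its rise is given as a level and adds no support to the count.

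Partners and cargo of the ARRDC proteins had 5 rises and 3 falls among 10 tested genes (median log2 change 0.38), and in nuclear TPM 6 and 2. The 8 of 10 that passed are about the 80.4% of all tested genes that did. TSG101, the sorting protein gene through which ARRDC1 buds vesicles, rose 1.82-fold, from 29.9 ± 1.77 to 54.6 ± 2.03 FPKM, and PDCD6IP, the ALIX gene, rose 2.28-fold, from 35.0 ± 1.68 to 79.8 ± 4.75 (SD, n = 3). The paralogous ATPase genes of the same machinery went opposite ways, as VPS4A fell by 0.51 (limma adjusted p = 0.000111) and VPS4B rose by 0.81 (limma adjusted p = 3.30e-06). ITGB4, the integrin beta-4 gene, whose product is a known ARRDC3 cargo, fell from 32.3 ± 5.35 to 10.7 ± 1.04 (SD, n = 3; log2 change -1.50).

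Genes that supply or use glucose 6-phosphate, the signal for MondoA, had 1 rise and 5 falls among 7 tested (median log2 change -0.43), and in nuclear TPM 2 and 3. The largest fall was that of HKDC1, a hexokinase gene, from 35.0 ± 1.57 to 3.44 ± 0.463 FPKM, and SLC2A1 is also among the falls. The rise was that of H6PD, an enzyme of the endoplasmic reticulum that oxidises glucose 6-phosphate, from 4.86 ± 0.172 to 16.7 ± 2.32 (SD, n = 3). Of 8 tested lipogenic and glucose-response genes that MLX factors can activate, 2 rose and 5 fell (median -1.33). SCD, the desaturase gene, fell by 3.45 in log2 and ELOVL6, an elongase gene, by 1.84, while TKFC, a fructose metabolism gene, rose by 0.77. G6PC, the glucose-6-phosphatase gene, had 0 reads in every Cont library and was at least 20.7-fold higher in Dox, against a floor of 3 reads per Cont library. G6PC also entered the test only through Dox. Its rise therefore adds no support to the count, and without G6PC the list's median is -1.58. Many genes of this list also respond to other lipid and insulin signals.

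The other genes with an arrestin fold split as well. ARRB2, the beta-arrestin 2 gene, fell from 33.3 ± 2.02 to 11.0 ± 1.49 FPKM, and ARRB1 from 2.54 ± 0.170 to 1.04 ± 0.173 (SD, n = 3), with log2 changes of -1.52 and -0.80 (limma adjusted p = 4.16e-07 and 8.62e-05). Among the VPS26 genes, VPS26B rose 4.65-fold, from 16.3 ± 1.91 to 76.0 ± 3.91, and VPS26C rose by 0.37, while VPS26A fell by 0.51. In all, 2 of 5 tested genes rose and 3 fell (median log2 change -0.51). Both beta-arrestin genes were thus lower in Dox, as was TXNIP, while the 4 ARRDC genes were higher, within the limits given for ARRDC3 and ARRDC4.

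**Figure D5:**
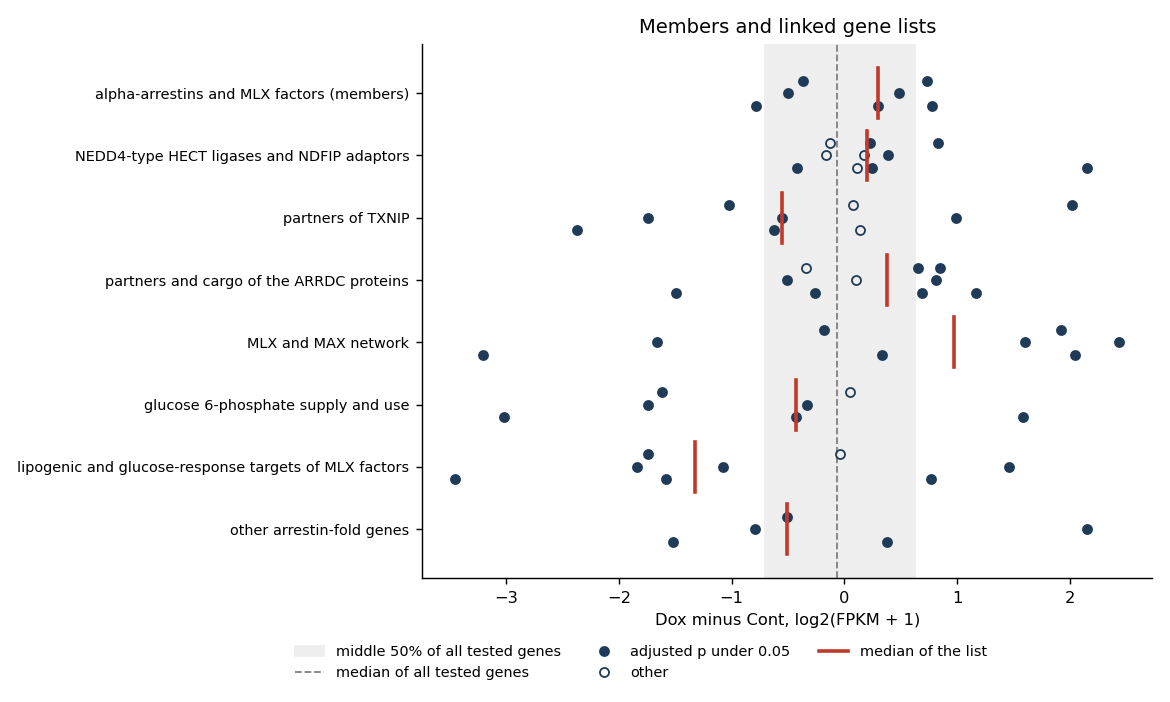
Log2 change (Dox minus Cont, log2(FPKM + 1)) of every tested gene in each list, filled where the limma adjusted p was under 0.05, with the list's median as a red bar; the grey band holds the middle 50% of all tested genes and the dashed line their median of -0.06. The 7 genes of the top row stay between -0.79 and 0.78, and the MLX and MAX list spreads from -3.21 to 2.44.

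The genes whose profile over the 6 libraries was closest to that of a member were found by Euclidean distance between centred log2(FPKM + 1) values. For TXNIP, JMJD4 and SLC50A1 were the nearest, at distances of 0.0992 and 0.120. For ARRDC4 they were ISCU, ARF4 and RNF141 (0.0392, 0.0678 and 0.0935), and for ARRDC3 they were PLEKHJ1, TRPT1 and CCNC (0.0902, 0.0912 and 0.109). For MLXIP they were NAMPT, BAG5 and TRIO (0.0569, 0.0602 and 0.0617). With 6 libraries in 2 groups, this likeness rests mostly on the difference between groups. Likeness to a gene of low level also depends on the log2(FPKM + 1) scale. In the deposited log2 values ARRDC4 changed by 1.85, but ISCU, ARF4 and RNF141 by 0.76, 0.70 and 0.74.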

How the data were processed

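Poly(A)-captured RNA of 3 Cont and 3 Dox libraries of SNU449 cells was sequenced, per the labels' protocols. FastQC 0.11.7 and GRCh38 appear in the submitters' processing notes. The aligner, the counter, the annotation and the gene filter are not given in the sources used here. The authors deposited 1 table of log2 FPKM values with a small offset, under a name that says FPKM. Columns were matched by title, since 1 description, that of Cont replicate 1, points to the column of Cont replicate 2.

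FPKM was taken as 2 to the power of each value. limma 3.58.1 (R 4.3.3) was run on log2(FPKM + 1) with a mean-variance trend, two-sided, over 11526 genes; 1591 genes below the filter were left out. The fit was tested on simulated data. Exact permutation tests used scipy 1.17.1. In 307 genes at least 2 libraries shared a lowest value, taken as 0 reads; above it, every value up to 20 reads lay within 0.05 of a whole number. Reads were scaled by the longest GENCODE 29 transcript, whose length accounted for 39.7% of 302 of these genes within 2%. Coordinates are those of GENCODE 29 on GRCh38.

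The 7 genes and all lists were chosen with earlier results of these data known. Named genes are the 7 members, FOXO1, up to 2 largest rises and 2 largest falls per list, 7 preset genes, and the 3 nearest profiles of 4 members; others (MXD1, MNT, MGA, VPS4B, VPS26A, PSMC3IP) were chosen after their values were seen, as partners, overlapping genes or remaining members of a list. Of the genes this rule names, 2 are not reported here. Listed symbols without a row were not analysed here. The 18 alternatives covered pseudocount, scale, filter, scaling, moderation, the replicate block and leaving out each library.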

Additional observations from a re-analysis of the deposited data

How the results depend on the processing

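All 7 members kept their direction in every alternative that tested them, and of the other genes named with their change only MGA changed sign (-0.18 as deposited, 0.10 in nuclear TPM and 0.077 under quantile normalization); its call also ended with the replicate block. The count of genes changed, 9265, stayed within 1.5 times in all 18 alternatives, from 7727 with a filter at FPKM 5 to 10138 with no filter. The filter at FPKM 5 tested only 4 members (2 higher, 2 lower), because TXNIP, ARRDC2 and ARRDC4 were too low for it. Leaving out 1 library gave 5 to 6 members changed, 2 to 4 of them higher and 2 to 3 lower, and 8319 to 9118 genes changed. The lowest count of higher members came without Dox replicate 1, where ARRDC4 was not tested and ARRDC3 missed the threshold. Split between directions depended on scaling: among all tested genes 4329 were higher and 4936 lower as deposited, but 5837 and 3855 after removal of mitochondrially encoded genes (nuclear TPM), where the median change of all genes was 0.22. The cause was not tested.

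With the replicate number as a block, 9272 genes and all 7 members passed, so the replicate block changed no call of a member. Deviations of same-numbered libraries correlated at 0.0371, -0.00483 and 0.0793, and those of differently numbered libraries at -0.0932 to 0.0924. Not every library correlated best with its own number. The block lowered the standard error of some genes, such as SCD (0.161 to 0.0822) and ITGB4 (0.124 to 0.0795). It raised that of others, such as ARRDC1 (0.0771 to 0.0849) and MLX (0.0824 to 0.0851). Whether same-numbered libraries share more than a number was not tested, since correlations over all genes can miss a likeness in some genes. Depth limits ARRDC4 and MLXIPL most, with 35 to 58 and 17 to 44 estimated reads per Cont library.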

Other observations

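Within the Dox group, ARRDC1 and ARRDC2 followed the order of FOXO1 mRNA over the 3 libraries and MLX ran opposite to it, a pattern chosen after the values were seen and too small for any test. FOXO1 was at 3.50, 2.87 and 2.01 FPKM in Dox replicates 2, 1 and 3. In the same order ARRDC1 was at 30.3, 29.3 and 27.1 and ARRDC2 at 6.63, 5.84 and 4.91, so that the library with the least FOXO1 mRNA had the lowest level of each. MLX was at 17.1, 18.9 and 20.7, and MLXIP was highest, at 6.95, in Dox replicate 3 and at 6.10 and 6.06 in Dox replicates 2 and 1. TXNIP, ARRDC3 and ARRDC4 did not follow that order. Libraries differ in scale, and its part in this order was not tested.

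Among the 9407 tested genes with a RefSeq promoter window, 323 held GTAAACA in at least 1 window; of these, 48.9% were higher and 32.5% lower in Dox, beside 37.2% and 43.4% of all 9407. ARRDC3 belongs to the higher genes among them and TXNIP to the lower. Of the 1180 genes with CACGTG, 34.0% were higher and 48.4% lower; ARRDC4 is among the former and MLX among the latter. Only 17 tested genes held the tandem box, and TXNIP is 1 of them. These shares carry no test.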
